A study of Mus musculus with 12 samples.

Results

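The 10 genes described here are the glucocorticoid receptor gene Nr3c1, the ligand-activating enzyme gene Hsd11b1 and 8 genes known as direct targets of the receptor: Fkbp5, Tsc22d3, Zbtb16, Sgk1, Klf9, Klf15, Errfi1 and Map3k6. They were chosen by symbol, all 10 were found among the 22151 genes of the deposited table, and all 10 were among the 17012 genes tested. The tissue was epididymal white fat (eWAT), the visceral depot beside the testis. Bulk RNA was sequenced from 12 C57BL6/J mice labelled male and aged 12 to 14 weeks (written C57bl6 in the sample labels), 1 animal per library. In 1 library the sex-linked transcripts did not match the label male, as given below. The 4 sham mice had a laparotomy with the liver left whole, and 5 and 3 other mice were sampled 3 and 7 days after 70% partial hepatectomy, which removes most of the liver and is followed by its regrowth. No mouse carried a named transgene or received a named drug. The labels do not say on which day or at what hour sham tissue was taken, and the source label of these mice reads as a time before hepatectomy.

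Glucocorticoids are adrenal steroids released under stress and in a daily rhythm. In fat, 11β-hydroxysteroid dehydrogenase type 1, the Hsd11b1 product, regenerates active corticosterone from its inert 11-keto form, and the steroid binds a receptor held ready in the cytosol by HSP90 and its cochaperones. The loaded receptor enters the nucleus, binds DNA mostly as a dimer on an element of 2 inverted 6-base arms, and raises or lowers transcription of nearby genes. In adipocytes the hormone is known to promote both differentiation and lipolysis, depending on dose and duration.

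The comparisons ask how these genes in a fat depot away from the liver differ from sham during regrowth. Library totals were 13128832 to 23474247 counts, and no member had fewer than 451 counts in any library. Levels are counts relative to library size (CPM) with TMM scaling, which corrects for differences in library composition. The tissue's defining markers were present: the 10 mature adipocyte markers summed to 17706 to 40013 CPM in every library, while the 6 epididymis markers listed had no values by library here and so check nothing. Several libraries stood apart. Day 3 library 5 had a mean correlation across genes of 0.926 with the sham libraries and 0.894 with the other day 3 libraries. Day 7 library 1 had 0.908 with the day 3 libraries and 0.869 with the other day 7 libraries. Sham library 4 held 2315 CPM of the hepatocyte transcript Alb. In day 3 library 1, Xist stood at 359 CPM and the Y-linked Ddx3y at 0.643 CPM, although the labels say male. All 12 libraries entered the tests. Some results are also given without 1 or more of these 4 libraries, but not all.

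Promoter windows, from 250 bases before to 50 bases after each annotated start (RefSeq, GRCm38.p6), show which members carry the receptor's consensus element close to a start. The element searched was the arm AGAACA, any 3 bases and the arm TGTTCT. It reads the same on both strands, so 1 search covers both, and mismatches were counted over its 12 fixed letters. Windows were found for 8 of the 10 members, 16 windows in all; none was used for Nr3c1 and Zbtb16. Of all 32817 windows searched, 3 held the element without a mismatch (0.00914%), and 1 of these was a window of Sgk1, which encodes the serum- and glucocorticoid-regulated kinase. The other 2 belonged to Acnat2 and to the predicted gene Gm35041, neither of which was among the genes tested. The Sgk1 window lies at chr10:21993640-21993939 on the plus strand, and the element, at chr10:21993701-21993715, begins 189 bases before the start. It is printed here because it carries that match, with the element in capitals, above the window of Fkbp5 at chr17:28486100-28486399 on the minus strand, which has no stretch closer than 6 mismatches and so no capitals.
Sgk1: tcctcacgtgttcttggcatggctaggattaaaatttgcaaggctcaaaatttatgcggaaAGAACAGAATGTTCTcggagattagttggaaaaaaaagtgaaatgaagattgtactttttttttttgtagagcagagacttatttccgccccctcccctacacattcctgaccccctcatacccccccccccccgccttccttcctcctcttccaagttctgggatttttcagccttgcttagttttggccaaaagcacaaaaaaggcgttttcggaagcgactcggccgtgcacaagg
Fkbp5: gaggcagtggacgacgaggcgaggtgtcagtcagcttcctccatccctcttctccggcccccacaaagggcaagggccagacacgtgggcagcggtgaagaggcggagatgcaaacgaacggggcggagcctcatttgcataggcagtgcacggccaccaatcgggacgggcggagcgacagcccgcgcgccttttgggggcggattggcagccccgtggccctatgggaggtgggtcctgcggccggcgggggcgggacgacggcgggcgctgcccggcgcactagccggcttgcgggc
At most 2 mismatches were found in 605 of all windows (1.84%) and in 2 of the 16 windows of the members, both of Sgk1. The closest stretches among the members are shown next with the arms in capitals and the 3 spacer bases in lower case.
Sgk1 without mismatch: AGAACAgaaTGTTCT
Sgk1 with 2 mismatches: AGAAGAttcTGATCT
Sgk1 with 3 mismatches: GGAATCcgtTGTTCT
Map3k6 with 3 mismatches: GGCACAggcTGTTCC
Errfi1 with 3 mismatches: AAAACTcggTGTCCT
The second and the third Sgk1 stretches lie in other Sgk1 windows, at chr10:21985921-21985935 and chr10:21881980-21881994. The Map3k6 stretch begins 182 bases and the Errfi1 stretch 235 bases before a start. A single arm on either strand occurred in 6226 of all windows (19.0%) and in 4 of the members' windows, 3 of Sgk1 and 1 of Tsc22d3. These matches describe letters in a short window only. The receptor is known to bind many of its targets far from the start, in introns or distal enhancers, which these windows do not cover.

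At day 3, 9 of the 10 genes had a higher level than sham on the log2 scale, against 48.3% of all genes tested, and their median log2 difference was 1.22 against -0.02 over all genes. By edgeR's quasi-likelihood test 7 of them were higher at an unadjusted p under 0.05 (5.9% of all genes tested were), namely Errfi1, Klf9, Fkbp5, Map3k6, Hsd11b1, Sgk1 and Tsc22d3. None passed at an adjusted p under 0.05 over all genes, where 1 gene of 17012 did (0.00588%), and the smallest adjusted p of a member was 0.403. DESeq2 on the same counts called 4 members, Fkbp5, Klf9, Errfi1 and Map3k6, and 0.717% of all genes. The authors' deposited table gives the same 4 a false discovery rate (FDR) under 0.05, with 0.564% of its genes so called. On counts simulated for this comparison, edgeR recovered 4.5% of genes changed by 1 on the log2 scale and 81.0% of those changed by 2. The simulated counts varied independently by gene, without libraries that resembled another group, so these shares may not hold for the real libraries. Without day 3 library 5 the median of the members was 1.37, 7 were higher and 1, Nr3c1, was lower at an unadjusted p under 0.05 (18.5% of all genes reached it in either direction), and none passed the adjusted threshold (0% of all genes). Without sham library 4 and day 3 library 1 together it was 0.99, and 5 were higher at that p (5.26% of all genes in either direction).

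**Figure D1:**
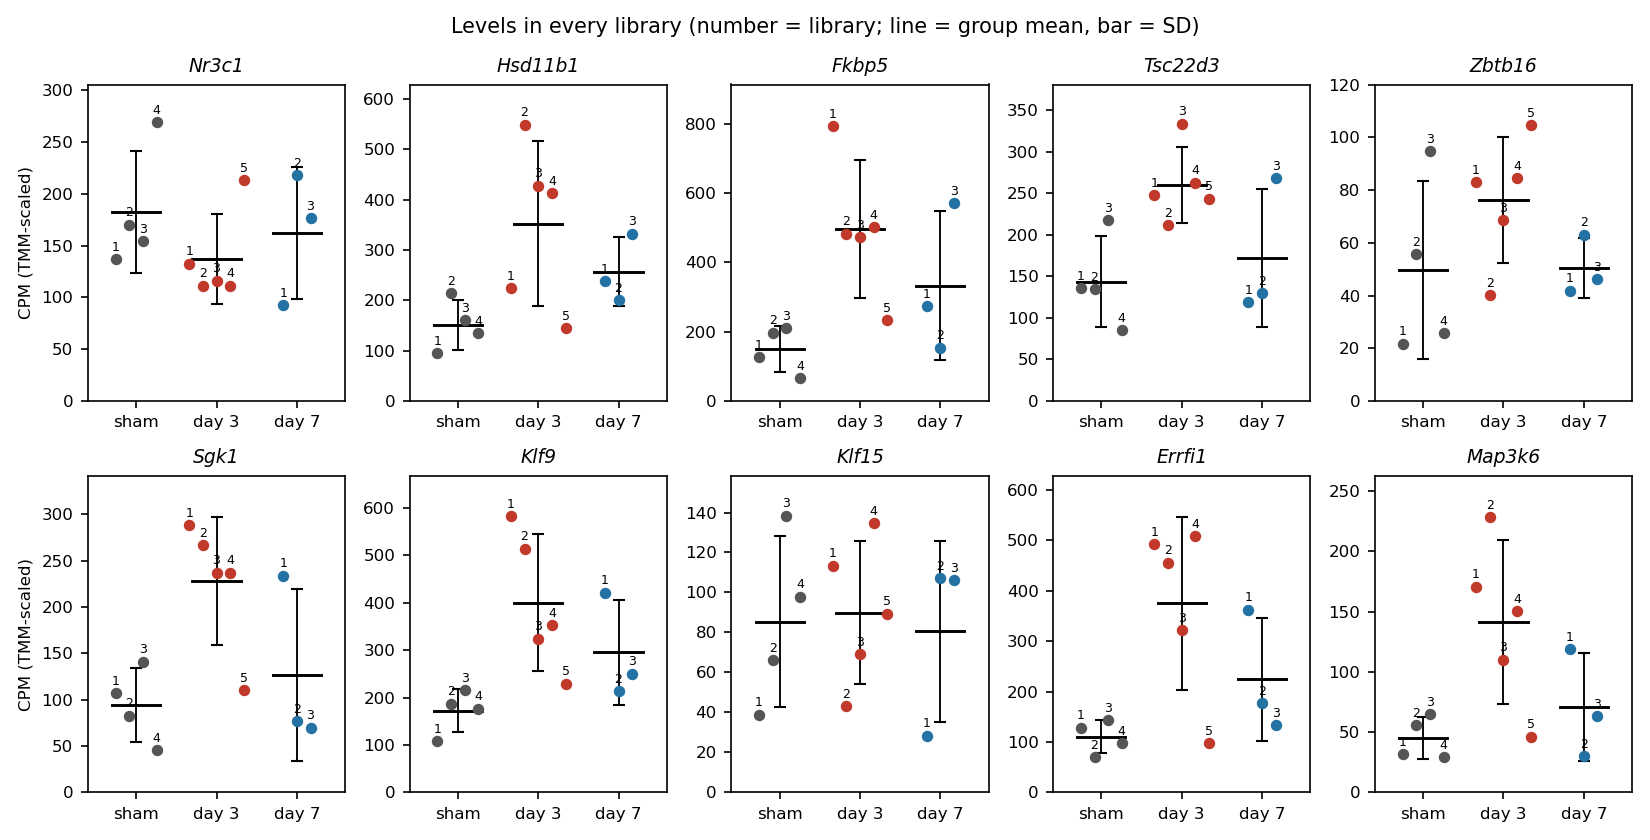
Level of each of the 10 genes in CPM (y axes from 0, linear) in sham, day 3 and day 7 libraries; points are libraries with their number, lines are group means and bars SD. Day 3 library 5 sits near the sham libraries for Sgk1 (110 CPM) and Errfi1 (98.0 CPM), and day 7 library 1 near the day 3 libraries for both (234 and 362 CPM).

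Nr3c1 (ENSMUSG00000024431, chromosome 18, mm39 39543598 to 39652475, minus strand) encodes the receptor itself. Its level was 137, 170, 154 and 269 CPM in sham libraries 1 to 4, 133, 111, 116, 111 and 213 CPM in day 3 libraries 1 to 5, and 92.7, 218 and 176 CPM in day 7 libraries 1 to 3. Of the day 3 libraries 4 lay below every sham library, and library 5 lay above 3 of them, so the groups overlapped. The mean was 183 ± 59.1 CPM (SD, n = 4) in sham, 137 ± 43.3 CPM (SD, n = 5) at day 3 and 162 ± 63.7 CPM (SD, n = 3) at day 7. The log2 difference at day 3 was -0.42 (SE 0.294, edgeR unadjusted p = 0.182, adjusted p = 0.603). It was -0.66 without day 3 library 5 (edgeR unadjusted p = 0.0385) and -0.17 without sham library 4 (0.587), so the size of the receptor's difference turned on these 2 libraries. Ranked over the 12 libraries, sham library 4 was 1st for Nr3c1, last for Fkbp5, Tsc22d3, Sgk1 and Map3k6, 11th for Zbtb16, Klf9 and Errfi1 and 6th for Klf15. Day 7 library 1 was last for Nr3c1 and for Klf15, 11th for Tsc22d3, 9th for Zbtb16, 6th for Fkbp5, 5th for Sgk1, 4th for Errfi1 and Map3k6 and 3rd for Klf9. Other libraries varied by gene: day 3 library 5 was 3rd for Nr3c1 and 1st for Zbtb16, but 10th for Errfi1 and 9th for Map3k6. Day 7 library 3 was 4th for Nr3c1 and 2nd for Fkbp5 and Tsc22d3. Over the 12 libraries, the Pearson correlation of log2 CPM with Nr3c1 was -0.88 for Sgk1, -0.80 for Map3k6 and -0.76 for Errfi1. It was -0.61 for Fkbp5, -0.58 for Klf9, -0.54 for Hsd11b1, -0.37 for Tsc22d3, -0.06 for Zbtb16 and 0.49 for Klf15. For Sgk1, Map3k6 and Errfi1 it was -0.92, -0.79 and -0.74 after subtracting group means. These correlations carry no test.

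Hsd11b1 (ENSMUSG00000016194, chromosome 1, 192903942 to 192946384, minus strand) encodes the enzyme that makes the active hormone inside the cell. Its level was 94.6, 214, 160 and 135 CPM in sham libraries 1 to 4, 225, 549, 427, 413 and 145 CPM at day 3, and 237, 200 and 332 CPM at day 7. Day 3 libraries 2 to 4 were the 3 highest of all 12, day 3 library 1 was just above the highest sham library, and library 5 was within the sham range. The means were 151 ± 50.1, 352 ± 164 and 257 ± 68.0 CPM (SD, n = 4, 5 and 3). The log2 difference was 1.22 at day 3 (SE 0.373, edgeR unadjusted p = 0.00615, adjusted p = 0.403), and 0.99 to 1.43 when any 1 library was left out. At day 7 it was 0.76 (SE 0.410, edgeR unadjusted p = 0.0850).

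Fkbp5 and Klf9 were the members whose day 3 libraries all lay above all sham libraries, library 5 included, which 1.58% of all genes tested did. Fkbp5 (ENSMUSG00000024222, chromosome 17, 28618068 to 28736502, minus strand) encodes FKBP51, a cochaperone that lowers the receptor's affinity for hormone and so closes a feedback loop. Its level was 126, 197, 209 and 66.4 CPM in sham, 793, 482, 473, 501 and 232 CPM at day 3, with 273, 153 and 570 CPM at day 7. Day 3 library 1 was highest and day 3 library 5 exceeded the highest sham library by a narrow margin. The mean went from 150 ± 66.4 CPM (SD, n = 4) to 496 ± 199 CPM (SD, n = 5), a fold of 3.32 by edgeR (log2 1.73, SE 0.457, unadjusted p = 0.00228, adjusted p = 0.403), and DESeq2 gave an adjusted p of 0.0203. The log2 difference was 1.47 to 1.94 when any 1 library was left out, lowest without sham library 4. At day 7 the level was 332 ± 214 CPM (SD, n = 3), with library 2 within the sham range.

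Klf9 (ENSMUSG00000033863, chromosome 19, 23118590 to 23145499, plus strand) encodes a Krüppel-like transcription factor that glucocorticoids induce in many tissues. Sham libraries held 109, 187, 216 and 177 CPM, day 3 libraries 583, 514, 324, 352 and 229 CPM, and day 7 libraries 421, 214 and 250 CPM. The lowest day 3 library, again library 5, was above the highest sham library, and day 7 library 2 overlapped with sham. The day 3 log2 difference was 1.22 (SE 0.320, edgeR unadjusted p = 0.00218, adjusted p = 0.403; DESeq2 adjusted p = 0.0323), and it stayed between 1.03 and 1.35 when any 1 library was left out.

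Tsc22d3 (ENSMUSG00000031431, chromosome X, 139440277 to 139501409, minus strand) encodes GILZ, a leucine zipper protein that carries part of the hormone's anti-inflammatory action. Sham libraries held 136, 135, 218 and 84.9 CPM, and day 3 libraries 248, 211, 334, 263 and 244 CPM. Day 7 libraries held 119, 130 and 268 CPM. At day 3 library 2 alone lay below the highest sham library, while day 7 libraries 1 and 2 were below sham libraries 1 and 2. Here day 3 library 5 did not stand apart from its group. The day 3 log2 difference was 0.86 (SE 0.303, edgeR unadjusted p = 0.0141, adjusted p = 0.409). It was 0.66 without sham library 4 (edgeR unadjusted p = 0.0506), so its place under 0.05 rested on that library. At day 7 the difference was 0.27 (SE 0.337, unadjusted p = 0.446).

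Sgk1, Errfi1 and Map3k6 are targets that act in kinase signalling, and in all 3 the same libraries departed from their groups. Sgk1 (ENSMUSG00000019970, chromosome 10, 21758083 to 21875803, plus strand) encodes the kinase whose window with the complete element is printed above. Its level was 107, 82.7, 141 and 45.6 CPM in sham, 288, 266, 237, 237 and 110 CPM at day 3, with 234, 77.0 and 69.9 CPM at day 7. Day 3 libraries 1 to 4 were the 4 highest of the 12, day 7 library 1 came next, and day 7 libraries 2 and 3 were below 3 of the 4 sham libraries. The day 3 log2 difference was 1.28 (SE 0.427, edgeR unadjusted p = 0.0106, adjusted p = 0.403). It was 1.03 to 1.54 when any 1 library was left out, lowest without sham library 4. At day 7 it was 0.43 (SE 0.469, unadjusted p = 0.373), and -0.33 without day 7 library 1.

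Errfi1 (ENSMUSG00000028967, chromosome 4, 150938376 to 150953350, plus strand) encodes MIG6, a feedback inhibitor of the EGF receptor. It stood at 128, 70.2, 144 and 97.7 CPM in sham, at 492, 456, 322, 509 and 98.0 CPM at day 3, with 362, 178 and 133 CPM at day 7. Day 3 libraries 1 to 4 were all above every sham library and library 5 was below 2 of them. The day 3 log2 difference of 1.77 was the largest of the 10 (SE 0.454, edgeR unadjusted p = 0.00188, adjusted p = 0.403; DESeq2 adjusted p = 0.0185), a fold of 3.41. Without day 3 library 5 it was 1.99. At day 7 it was 1.03 (SE 0.489, edgeR unadjusted p = 0.0558), and 0.53 without day 7 library 1.

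Map3k6 (ENSMUSG00000028862, chromosome 4, 132968129 to 132980241, plus strand) encodes ASK2, a stress-activated kinase of the MAP kinase cascade. It stood at 31.9, 55.9, 64.7 and 29.0 CPM in sham, at 171, 229, 110, 151 and 46.1 CPM at day 3, with 119, 30.3 and 63.5 CPM at day 7. Day 3 libraries 1 to 4 again lay above every sham library, and library 5 below 2 of them. The day 3 log2 difference was 1.64 (SE 0.478, edgeR unadjusted p = 0.00472, adjusted p = 0.403; DESeq2 adjusted p = 0.0490). It was 1.38 to 1.86 when any 1 library was left out, lowest without day 3 library 2. At day 7 it was 0.64 (SE 0.518, unadjusted p = 0.237), and 0.06 without day 7 library 1.

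Zbtb16 and Klf15 did not separate the groups. Zbtb16 (ENSMUSG00000066687, chromosome 9, 48565597 to 48747523, minus strand) encodes PLZF, a zinc finger factor strongly induced by glucocorticoids in several human cell types. It ranged over 21.8, 55.8, 94.8 and 25.8 CPM in sham, 83.1, 40.1, 68.5, 84.7 and 105 CPM at day 3, with 41.8, 63.1 and 46.3 CPM at day 7. Sham library 3 was the second highest of all 12 libraries, and the highest was day 3 library 5, which ranked 10th for Errfi1 and 9th for Map3k6. The day 3 log2 difference was 0.62 (SE 0.404, edgeR unadjusted p = 0.148), and 1.15 without sham library 3 (0.00836). Klf15 (ENSMUSG00000030087, chromosome 6, 90439558 to 90452221, plus strand) encodes a factor of amino acid and lipid metabolism and of adipocyte differentiation. Its level was 38.8, 66.3, 138 and 97.8 CPM in sham, 113, 43.2, 69.3, 135 and 89.4 CPM at day 3, with 28.4, 107 and 106 CPM at day 7, and every group spanned much of the same range. Its log2 difference was 0.08 at day 3 (SE 0.450, edgeR unadjusted p = 0.867) and -0.08 at day 7 (SE 0.513, unadjusted p = 0.875), and its sign changed between alternative settings.

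**Figure D2:**
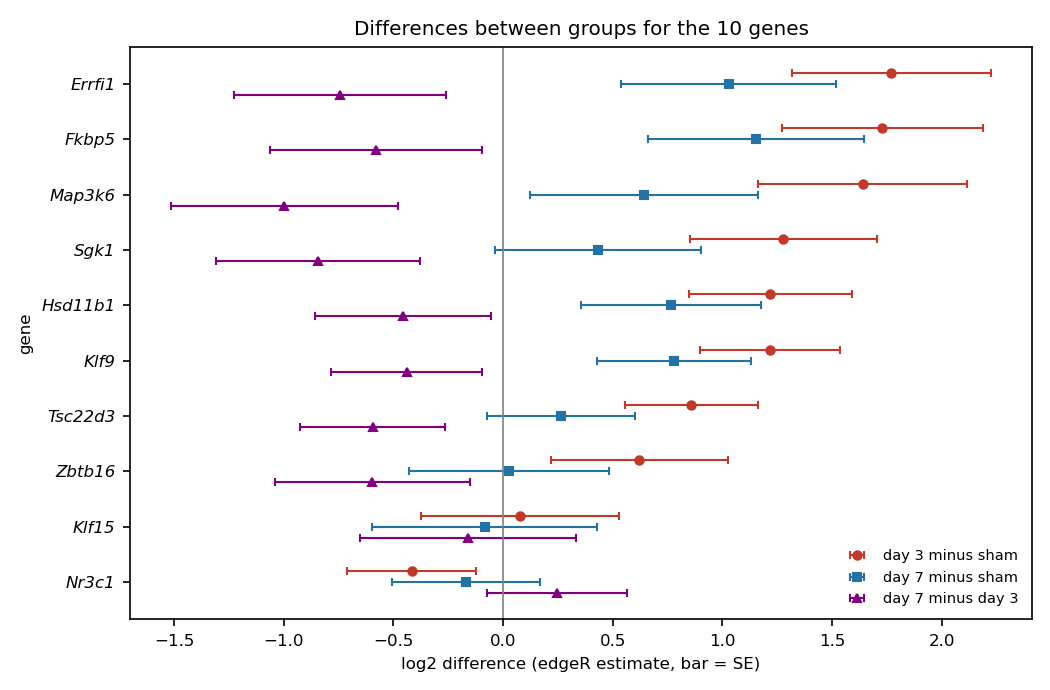
Log2 difference (x axis, edgeR estimate, bars SE) of each gene for day 3 minus sham, day 7 minus sham and day 7 minus day 3, sorted by the first. Errfi1, Fkbp5 and Map3k6 have day 3 values of 1.77, 1.73 and 1.64, Klf15 lies at 0.08 and Nr3c1 at -0.42; no value passed the adjusted threshold.

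Per kilobase of exon (union of GENCODE vM21 exons), which allows levels of different genes to be set side by side, Hsd11b1 stood highest in sham at 80.1 ± 26.6 CPM per kb (SD, n = 4), ahead of Tsc22d3 at 51.7 ± 19.8. Klf9, Errfi1, Klf15, Nr3c1, Sgk1 and Fkbp5 followed at 38.4 to 22.9 CPM per kb, neighbours in this order differing by less than their SD. Map3k6 and Zbtb16 were lowest, at 10.5 and 9.38 CPM per kb. At day 3 the level of Hsd11b1 was 186 ± 86.7 CPM per kb (SD, n = 5), Errfi1 was second at 116 ± 52.996, and Nr3c1 was at 20.9 ± 6.63.

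At day 7, 8 of the 10 genes had a log2 difference above 0 (50.7% of all genes tested), with a median of 0.54 against 0.01 over all genes. Fkbp5 (1.15, SE 0.493, edgeR unadjusted p = 0.0362) and Klf9 (0.78, SE 0.351, 0.0452) were higher at an unadjusted p under 0.05, as were 3.51% of all genes. None passed the adjusted threshold by edgeR or DESeq2, where edgeR called 0% of all genes and DESeq2 0.411%. No member had day 7 libraries that all lay above or all below sham, as 2.83% and 4.07% of all genes did. The Fkbp5 value fell most without day 7 library 3, to 0.52 (edgeR unadjusted p = 0.301). The Klf9 value fell most without day 7 library 1, to 0.45 (0.234). Neither gene reached an unadjusted p under 0.05 without sham library 1, nor without sham library 4. Both comparisons with sham share the 4 sham libraries, so a high or low sham library moves both alike.

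Tested directly, day 7 against day 3 gave 9 of 10 members below 0, where 52.8% of all genes lay above 0, and a median of -0.59 against 0.03 over all genes. None of the 10 reached an unadjusted p under 0.05 by edgeR (3.34% of all genes did), none passed the adjusted threshold (0% of all genes), and by DESeq2 1 member was lower at that unadjusted p (4.28% of all genes reached it) and none passed (0.129%). The most negative values were -0.997 for Map3k6 (SE 0.516, edgeR unadjusted p = 0.0766) and -0.84 for Sgk1 (SE 0.464, 0.0925), while Nr3c1 was at 0.25 (SE 0.320). Without day 7 library 1 the differences were -1.58 for Map3k6, -1.61 for Sgk1 and -1.24 for Errfi1, each at an edgeR unadjusted p under 0.05 (9.03% of all genes) but with an adjusted p of at least 0.395 (0.0229% of all genes passed). These tests show neither a decline between the days nor that the days are alike. With both days set against sham, 8 of 10 members were above 0 (49.2% of all genes), with a median of 0.92, and 5 were higher at an unadjusted p under 0.05 (5.3% of all genes). None of them passed by edgeR (0% of all genes), and DESeq2 called Fkbp5 alone (adjusted p = 0.0423; it called 0.758% of all genes).

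**Figure D3:**
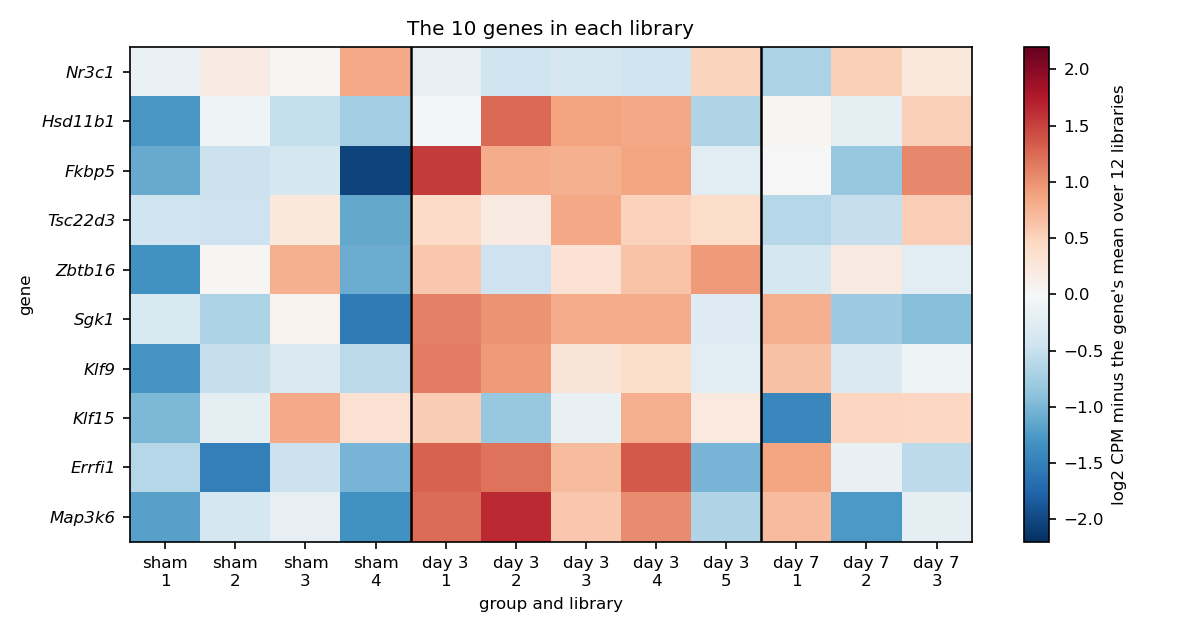
Heat map of log2 CPM of the 10 genes (rows) in the 12 libraries (columns, black lines between groups), each gene centred on its mean over all libraries. Day 3 libraries 1 to 4 are above the mean for Fkbp5, Sgk1, Errfi1 and Map3k6, while day 3 library 5 is below it for the same 4 genes and above it for Nr3c1, Tsc22d3, Zbtb16 and Klf15.

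Read library by library, the mean centred log2 CPM of the 8 targets was -0.92, -0.53, 0.07 and -1.05 in sham libraries 1 to 4. It was 0.98, 0.56, 0.52, 0.80 and -0.11 in day 3 libraries 1 to 5, and 0.07, -0.40 and 0.00 in day 7 libraries 1 to 3. Day 3 libraries 1 to 4 were above every other library by this measure, and day 3 library 5 was below sham library 3. Leaving out day 3 library 5, a choice made after the values were seen, 6 members did not overlap with sham in the upward direction (Hsd11b1, Fkbp5, Sgk1, Klf9, Errfi1 and Map3k6) and Nr3c1 did not in the downward. Of all genes, 7.85% and 8.12% then did the same. With day 7 library 1 left out as well, edgeR called these 6 members at day 3 (adjusted p of 0.00641 to 0.0345, 5.79% of all genes passed) and Sgk1 and Errfi1 as lower at day 7 than at day 3 (0.0287 and 0.0312, 2.54% of all genes). Both libraries were left out because they resembled other groups, so those calls rest on that choice. Libraries that were kept did so as well. Day 7 library 2 correlated across genes at 0.957 with day 3 library 5, and at 0.857 and 0.927 with day 7 libraries 1 and 3. Day 7 library 3 correlated at 0.944 with sham library 2, and at 0.882 and 0.927 with day 7 libraries 1 and 2.

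Summed markers of other cells varied between libraries, and in each list below the day 3 range overlapped the sham range. The 6 erythroid markers (all 6 tested) summed to 1474 to 4528 CPM in sham, 1796 to 27789 CPM at day 3 and 3944 to 13744 CPM at day 7. Day 3 library 1, which held the highest levels of Fkbp5, Sgk1 and Klf9, was within the sham range for them. Of 10 lymphocyte markers the 6 tested summed to 3.00 to 103 CPM in sham and 2.32 to 22.9 CPM at day 3. The 9 macrophage markers ranged over 1500 to 3360, 1146 to 2963 and 1256 to 5924 CPM in the 3 groups, and the 7 mesothelial markers over 878 to 1294, 698 to 1130 and 264 to 985 CPM. The 7 endothelial markers ranged over 499 to 1114, 495 to 1201 and 577 to 996 CPM. For the 9 progenitor and fibroblast markers the ranges were 4296 to 6180, 3339 to 7079 and 3114 to 4275 CPM. Neutrophil markers (6 of 7 tested) summed to 6.24 to 254 CPM in sham. Their sums were 166, 236, 178, 70.4 and 6.96 CPM in day 3 libraries 1 to 5, and 578, 11.6 and 20.9 CPM in day 7 libraries 1 to 3. Hepatocyte markers (6 of 8 tested) summed to at most 9.52 CPM in sham libraries 1 to 3 and to 3273 CPM in sham library 4, the library with the lowest Fkbp5, Tsc22d3, Sgk1 and Map3k6. These hepatocyte markers summed to 9.02 to 41.8 CPM at day 3, and to 81.6, 299 and 3.28 CPM in day 7 libraries 1 to 3. Adipoq, the adiponectin gene, stood at 1595 to 4227 CPM in sham, at 909 to 1502 CPM in day 3 libraries 1 to 4 and 4331 CPM in library 5, and at 328 CPM in day 7 library 1. It is 1 of the 10 mature adipocyte markers, which together summed to 20246 to 40013 CPM in sham, 22152 to 34313 CPM at day 3 and 17706 to 38809 CPM at day 7. Of these 10, 3 were above 0 at day 3 (48.3% of all genes), with a median of -0.30. Fabp4 was higher in all 5 day 3 libraries than in sham, as were 1.58% of all genes. The part of these markers in the members' differences was not tested, and in bulk tissue fewer cells of a type and less RNA per cell cannot be told apart.

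Beyond the 10 genes, 47 other genes listed as induced by glucocorticoids in some tissue were all tested. At day 3, 33 were above 0 (48.3% of all genes) with a median of 0.43, 9 were higher and 2 lower at an edgeR unadjusted p under 0.05 (5.9% and 4.97% of all genes), and none passed the adjusted threshold. Pdk4, a kinase that shuts pyruvate dehydrogenase during fasting, stood at 60.3, 203, 181 and 86.7 CPM in sham and at 2092, 2479, 1089, 888 and 230 CPM at day 3. At day 7 it held 1710, 123 and 75.3 CPM, so that library 1 resembled day 3 and the other two resembled sham. Its day 3 log2 difference was 3.35 (SE 0.965, edgeR unadjusted p = 0.00439, adjusted p = 0.403). Tle1, a Groucho-family corepressor, had 24.4 to 41.8 CPM in sham and 45.1 to 76.5 CPM in all 5 day 3 libraries, without overlap, as 1.58% of all genes (log2 1.05, SE 0.227, unadjusted p = 0.000477, adjusted p = 0.403). Ddit4, an inhibitor of mTORC1 signalling, was at 20.4 to 96.7 CPM in sham and 59.8 to 402 CPM at day 3 (log2 2.10, SE 0.651). Pck1, the phosphoenolpyruvate carboxykinase gene that glucocorticoids raise in liver and lower in fat, had a log2 difference of -0.72 at day 3 and -1.78 at day 7 (SE 0.548, unadjusted p = 0.00630). At day 7, 28 of the 47 were above 0 (50.7% of all genes) with a median of 0.27, and 3 were higher and 2 lower at that p, against 3.51% and 2.75% of all genes.

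HSP90, its cochaperones and the HSP70 system fold the receptor and hold it ready for hormone. Of 14 chaperones and cochaperones other than Fkbp5, 4 were above 0 at day 3 (48.3% of all genes) and the median was -0.25. At an edgeR unadjusted p under 0.05, 1 was higher and 3 lower (5.9% and 4.97% of all genes), and none passed the adjusted threshold. Fkbp4, which encodes FKBP52, the cochaperone that competes with FKBP51 and favours receptor activity, stood at 87.9, 79.4, 88.7 and 82.5 CPM in sham and 46.7, 25.1, 36.3, 43.7 and 68.3 CPM at day 3. All 5 day 3 libraries lay below all 4 sham libraries (2.14% of all genes did so), with a log2 difference of -0.94 (SE 0.280, edgeR unadjusted p = 0.00516, adjusted p = 0.403). At day 7 it was at 42.9, 104 and 74.2 CPM (log2 -0.20). Stip1, the HSP70 to HSP90 adaptor HOP, had -0.61 (SE 0.168, unadjusted p = 0.00323) and Ahsa1, an activator of the HSP90 ATPase, -0.48 (SE 0.150, 0.00716), while Dnajb1, an HSP40 of the heat shock response, had 1.32 (SE 0.524, 0.0260). Of 20 other receptors and coregulators 12 were above 0 (48.3% of all genes), with a median of 0.02. Of these 20, 1 was higher at that p, the coactivator Ncoa6 (log2 0.52, SE 0.182, 0.0141), as were 5.9% of all genes.

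**Figure D4:**
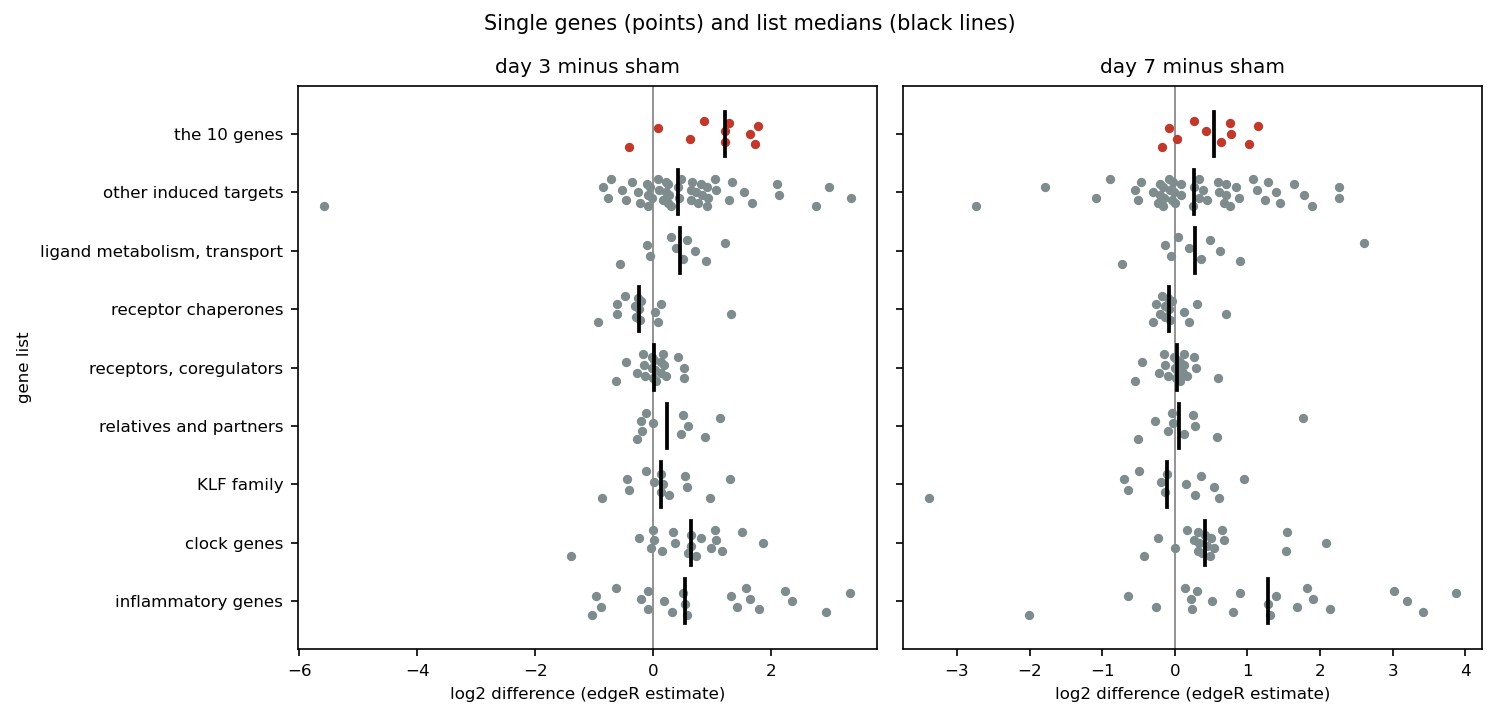
Log2 differences against sham (x axes, edgeR estimates, ranges differ between panels) of single genes (points) in the 10 members and in 8 related lists without them, for day 3 (left) and day 7 (right); black lines are medians. The median of the 10 genes is 1.22 at day 3, that of the receptor chaperones -0.25 and that of the receptors and coregulators 0.02.

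Of 10 other tested genes of ligand metabolism and transport, 7 were above 0 at day 3 (48.3% of all genes) with a median of 0.45. Abcb1b, an efflux pump that carries corticosteroids among its substrates, lay higher in all 5 day 3 libraries, as did 1.58% of all genes (65.8 to 108 CPM) than in sham (27.0 to 61.9 CPM; log2 0.89, SE 0.330, edgeR unadjusted p = 0.0181). Abcc1, another efflux pump, was at 55.2 to 76.3 CPM in sham and at 143, 114 and 86.2 CPM at day 7 (log2 0.89, unadjusted p = 0.000495, adjusted p = 0.561). Star, which delivers cholesterol for steroid synthesis, was at 183 CPM in day 7 library 1 and at most 52.3 CPM elsewhere. Steroid synthesis within the depot was not measurable from its later enzymes, since Cyp11a1 was below the filter and Cyp11b1, Cyp21a1 and Hsd3b1 had no values under these symbols. Among 13 other Krüppel-like factors 9 were above 0 at day 3 (48.3% of all genes) with a median of 0.14. The highest was Klf6, a broadly expressed, rapidly induced factor, at 78.8 to 155 CPM in sham and 106 to 469 CPM at day 3 (log2 1.31, SE 0.491, edgeR unadjusted p = 0.0202). Among 10 relatives and partners of the members 5 were above 0 at day 3 (48.3% of all genes), with a median of 0.23. Tsc22d2, a paralogue of Tsc22d3, had 0.87 (SE 0.388, unadjusted p = 0.0427), and Egfr, which the Errfi1 product inhibits, was likewise higher in all 5 day 3 libraries than in sham, as 1.58% of all genes were (108 to 140 against 85.7 to 96.6 CPM; log2 0.46, SE 0.221, 0.0562).

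Inflammatory genes that glucocorticoids are known to repress were not uniformly low. Of 21 tested, 14 were above 0 at day 3 (48.3% of all genes) with a median of 0.55, and 18 at day 7 (50.7% of all genes) with a median of 1.28. At day 3, 2 were higher (Ccl3, a chemokine, log2 3.33, and Nos2, inducible nitric oxide synthase, 1.42) and 2 lower (Mmp9, a matrix protease, -1.03, and Irf1, an interferon response factor, -0.63) at an edgeR unadjusted p under 0.05 (5.9% and 4.97% of all genes), and none passed the adjusted threshold. Levels of the 2 higher genes were low, 0 to 33.7 CPM for Ccl3 and 1.38 to 15.9 CPM for Nos2 over all libraries. Several others in the list also had a lowest level of 0 CPM. Of 19 clock genes 16 were above 0 at day 3 (48.3% of all genes) with a median of 0.64, and 7 were higher at that p (5.9% of all genes), among them Per1, itself a receptor target (61.0 ± 29.0 CPM in sham, 128 ± 49.02 CPM at day 3, SD, n = 4 and 5). The clock output gene Dbp ranged from 13.0 to 88.2 CPM in sham and from 2.09 to 30.3 CPM at day 3. The part of time of day in the members' levels was not tested.

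Outside the members and lists, the genes whose levels followed the 8 targets most closely over the 12 libraries, of 11160 genes ranked by Pearson correlation of log2 CPM with the targets' mean, were Dnajb5 (r = 0.924), Phaf1 (0.921), Rad17 (0.919), Fam117b (0.914), Dop1a (0.909) and Tom1 (0.905). These are the extremes of a ranking and carry no test. Group membership is shared by all of them, and after subtracting group means the correlations were 0.727 to 0.899. Fam117b stood at 31.3 ± 7.19 CPM in sham (SD, n = 4), 63.3 ± 11.6 CPM at day 3 (SD, n = 5) and 41.1 ± 8.35 CPM at day 7 (SD, n = 3). The 4 genes closest to Nr3c1 were Kdm4c (r = 0.965), Dnajb14 (0.963), Erap1 (0.961) and Amer1 (0.961), with 0.958 to 0.969 after subtracting group means.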

How the data were processed

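RNA was extracted from frozen bulk eWAT with QIAzol, cleaned up and treated with DNase, per the labels' protocols; the labels name polyA RNA and the series design total RNA. Partek, STAR and DESeq2 with build mm39 are named in the submitters' processing notes; versions and settings are not given in the sources used here, and strandedness is not stated. The authors' deposited table holds expected counts per gene and sample (19.4% of values lay more than 0.05 from a whole number), rounded here. A second block of values holds normalized count signal, each sample divided by the authors by 1 factor, used here only for matching. The authors also deposited a p-value, a step-up FDR and a log2 ratio per gene for day 3 and day 7 against sham; these are quoted only where the deposited table is named. Per-sample lines do not stand beside their genes. Each of 18086 lines went to the gene with the same deposited mean and maximum, within a relative tolerance of 3e-05, with 16 settled by neighbours and 0 out of gene order. The 4065 genes without values hold 0.0784% of normalized counts. Coordinates of genes are mm39 as deposited; exon lengths (GENCODE vM21) and promoter windows (RefSeq, GRCm38.p6) were joined by gene identifier and symbol.

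The test was edgeR 4.0.16 (R 4.3.3), quasi-likelihood with robust dispersion, TMM scaling and filterByExpr at a minimum count of 10, on all 12 libraries in 1 fit without a block; p-values of 17012 genes were adjusted together by Benjamini-Hochberg, and the threshold was 0.05. The fit was tested on simulated data with known changes. Alternatives were DESeq2 1.42.0, voom with quality weights (limma 3.58.1), relative log expression scaling, library totals only, other filters, only the groups compared, a replicate block and leaving out libraries. The SE of an edgeR log2 difference is its absolute value divided by the square root of the test's F statistic, an approximation. Log2 CPM for library means and correlations used a prior count of 2. Each library is a separate animal, so p-values rest on the spread between animals and preparation together. Columns of no labelled sample numbered 0.

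The members and the other gene lists were chosen with earlier results of these data known, so their counts and medians are descriptions. All 10 members are described. From each other list up to 4 genes with the smallest unadjusted p in either comparison with sham and a mean of at least 1 CPM qualified to be named, and likeness was ranked over genes of at least 5 CPM outside the members. Adipoq, Alb, Xist, Ddx3y and Dbp, which describe libraries, were named after their values were seen, as were Acnat2 and Gm35041.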

Additional observations from a re-analysis of the deposited data

Results flagged for a closer look

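With 10 genes in 2 groups of 4 or 5 libraries, 20 sets of values were examined for a library far from the rest of its group, and chance sets 1 in about 20 apart. In 2 sets a library stood apart, both times day 3 library 5. For Nr3c1 it was the highest of the day 3 libraries at 212.8 CPM, with the other 4 between 111.3 and 132.7 CPM. For Sgk1 it was the lowest at 110.4 CPM, with the other 4 between 236.9 and 288.5 CPM. The same library held 4331 CPM of Adipoq, where the other day 3 libraries held at most 1502 CPM. The 10 mature adipocyte markers together differed less, at 34313 CPM in this library and 22152 to 31222 CPM in the other day 3 libraries. The part of the library's makeup in its Nr3c1 or Sgk1 level was not tested.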

How the results depend on the processing

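Against 1, 0, 0 and 0 genes called at day 3, at day 7, for day 7 against day 3 and for both days, DESeq2 called 122, 70, 22 and 129 and voom 0, 15, 2 and 37. Leaving out single libraries gave 0 to 2, 0 to 3, 0 to 4 and 0 to 4. The replicate block called 0 genes at day 3, as did leaving out sham library 4 and day 3 library 1 together. Same-numbered libraries deviated from their group means with correlations of -0.37 to 0.19, and differently numbered ones with -0.59 to 0.62. These values gave no sign that the numbers pair the samples. With so few libraries they cannot show that the numbers do not. The block called no member. Leaving out day 3 library 5 and day 7 library 1 together called 1005, 17, 441 and 15 genes, with 6 members at day 3 and 2 (Sgk1 and Errfi1) between the days. This setting was added after seeing the data, so its calls depend on that choice. Both dropped libraries had a higher mean correlation with another group than with their own, but so did day 7 libraries 2 and 3, which were kept.

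The members' median at day 3 was 0.99 to 1.39 over 22 alternatives and at day 7 0.33 to 0.80. Of 220 alternative values of single members at day 3, 206 kept direction and side of the threshold, 10 newly passed it and 4 changed sign, all 4 of Klf15. When 1 library was left out, signs changed within -0.17 to 0.41 for Klf15 at day 3. At day 7 the ranges were -0.44 to 0.14 for Nr3c1, -0.19 to 0.54 for Tsc22d3, -0.22 to 0.55 for Zbtb16, -0.33 to 0.72 for Sgk1 and -0.34 to 0.34 for Klf15. Between the days they were -0.0235 to 0.55 for Nr3c1 and -0.42 to 0.27 for Klf15, and for both days -0.25 to 0.33 for Klf15. Other sign changes at day 7 were Nr3c1 at 0.0945 without sham library 4 and day 3 library 1 and 0.11 without day 3 library 5 and day 7 library 1, Zbtb16 at -0.0620 with library totals only and -0.18 without sham library 4 and day 3 library 1, and Sgk1 at -0.35 without day 3 library 5 and day 7 library 1. Klf15 at day 7 was 0.13 with voom, 0.0767 with the replicate block and 0.32 without day 3 library 5 and day 7 library 1. Between the days it was 0.0264 with voom and 0.25 without that pair, and for both days 0.11 with voom, 0.15 with the replicate block, 0.0190 without sham library 4 and day 3 library 1 and 0.20 without the other pair. The cause of these changes was not tested. Scaling by library totals alone moved the median of all genes to -0.13 at day 3, and the members' median was then 1.11.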
